A study of Homo sapiens with 8 samples.

Results

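The 10 genes described here encode the receptors, kinases, transcription factor and feedback inhibitors of the interleukin-6 (IL-6) family of cytokines: the receptor chains IL31RA, OSMR, IL6ST (gp130), LIFR and IL6R, the kinases JAK1 and JAK2, the transcription factor STAT3, and the inhibitors SOCS2 and SOCS3. They were taken by symbol, 10 of the 35394 rows of a table of counts per gene, and all 10 were among the 15006 genes with enough counts to be tested. They were selected on results of the same comparison, namely the log2 fold change of PZH over DMSO, by which IL31RA was among the steepest rises of the whole table, so the values of the 10 genes are given as a description with standard errors and without p-values.

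The cells were HCT116, an established human colorectal cancer line labelled as epithelial and as carrying a ras mutation. PZH stands for Pien Tze Huang, a formula of traditional Chinese medicine that the study examined for effects on reactive oxygen species and tumour growth. There were 4 libraries of cells exposed to PZH over 24 h and 4 of control cells that received DMSO, the solvent. All samples are the same line, the PZH dose is not stated, and nothing says whether replicates were separate cultures, so p-values measure the spread between these libraries, which may be technical. PZH libraries held 18144117 to 18868057 counts and DMSO libraries 19288836 to 19917571.

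Cytokines of the IL-6 family act through receptor chains that pair on the cell surface. IL-6 binds IL6R and then recruits gp130, LIF joins LIFR to gp130, and oncostatin M joins gp130 to either LIFR or OSMR, whereas IL-31 acts through IL31RA paired with OSMR and does not need gp130. The paired chains bring JAK kinases together, these phosphorylate STAT3, and STAT3 switches on genes that include SOCS3, whose product binds gp130 and blocks the kinases. In colon epithelium this pathway is known for its part in tissue repair after injury and in tumour growth.

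Epithelial markers were present in both groups, with a summed level of 2382 to 2707 CPM (read counts scaled to library size, here with no further factors) in PZH and 3846 to 3913 CPM in DMSO over 7 genes. Of these, 6 averaged at least 1 CPM, while the brush border gene VIL1 was at or near 0 in every library. The 6 did not move together. With the TMM scaling described below, CDH1 (3.12-fold) and EPCAM (1.08-fold) were called higher and KRT8 (1.91-fold) and CDX2 (1.45-fold) lower. KRT18 and KRT19 were not called. Without scaling factors 1 of the 6 was called higher and 5 lower, beside 29.8% and 51.1% of all genes. Summed markers of endothelial, immune and erythroid cells stayed at or below 2.07 CPM in any library. Fibroblast markers summed to 17.5 to 21.3 CPM in PZH and 11.7 to 14.3 CPM in DMSO. Both tested markers of the 6 were called higher with TMM, beside 39.3% of all genes. The collagen gene COL1A1 made up most of the sum, at 312 to 367 counts in PZH libraries and 220 to 277 in DMSO libraries (1.77-fold higher, adjusted p = 3.09e-08 by edgeR's quasi-likelihood test). PDGFRB had 11 to 19 counts in PZH libraries and 3 to 8 in DMSO libraries (2.64-fold higher, adjusted p = 0.00272). Of the other 4, COL3A1 had at most 5 counts in a library, DCN and LUM at most 1, and COL1A2 had 0 in all, and the part of these markers in the results was not tested. In bulk RNA, less RNA of a kind per cell and fewer cells that make it cannot be told apart.

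Of the 10 genes, 9 were called higher in PZH and 1, SOCS2, lower, at an adjusted p under 0.05 by edgeR's quasi-likelihood test over all genes. The treatment moved most of the transcriptome: 39.3% of all tested genes were called higher and 40.9% lower, 80.3% in all, so that most members of any list would be called. At least 2-fold higher were 4 of the 10, IL31RA, IL6R, OSMR and JAK1, against 15.8% of all genes, and JAK1 fell short of 2-fold without scaling factors. PZH and DMSO libraries did not overlap for any of the 10, which held for 75.0% of all genes on the TMM scale described next; in CPM without scaling factors, an alternative chosen after seeing the data, 7 of the 10 did not overlap (75.6% of all genes), and IL6ST, LIFR and SOCS3 did. The median log2 fold change of the 10 was 0.69, and that of all genes -0.02. These levels are in CPM after TMM scaling, and log2 fold changes are PZH over DMSO. TMM sets a factor for each library from the bulk of genes, trimmed of extremes, and takes most genes as unchanged. With 80.3% of genes called, that may not hold here, and it was not tested. The factors were 0.896 to 0.949 in PZH libraries and 1.09 to 1.10 in DMSO libraries. Leaving the scaling factors out moved the median over all genes by -0.26 (log2), and then 29.8% of genes were called higher and 51.1% lower, and 6 of the 10 were called higher and 1 lower.

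**Figure D1:**
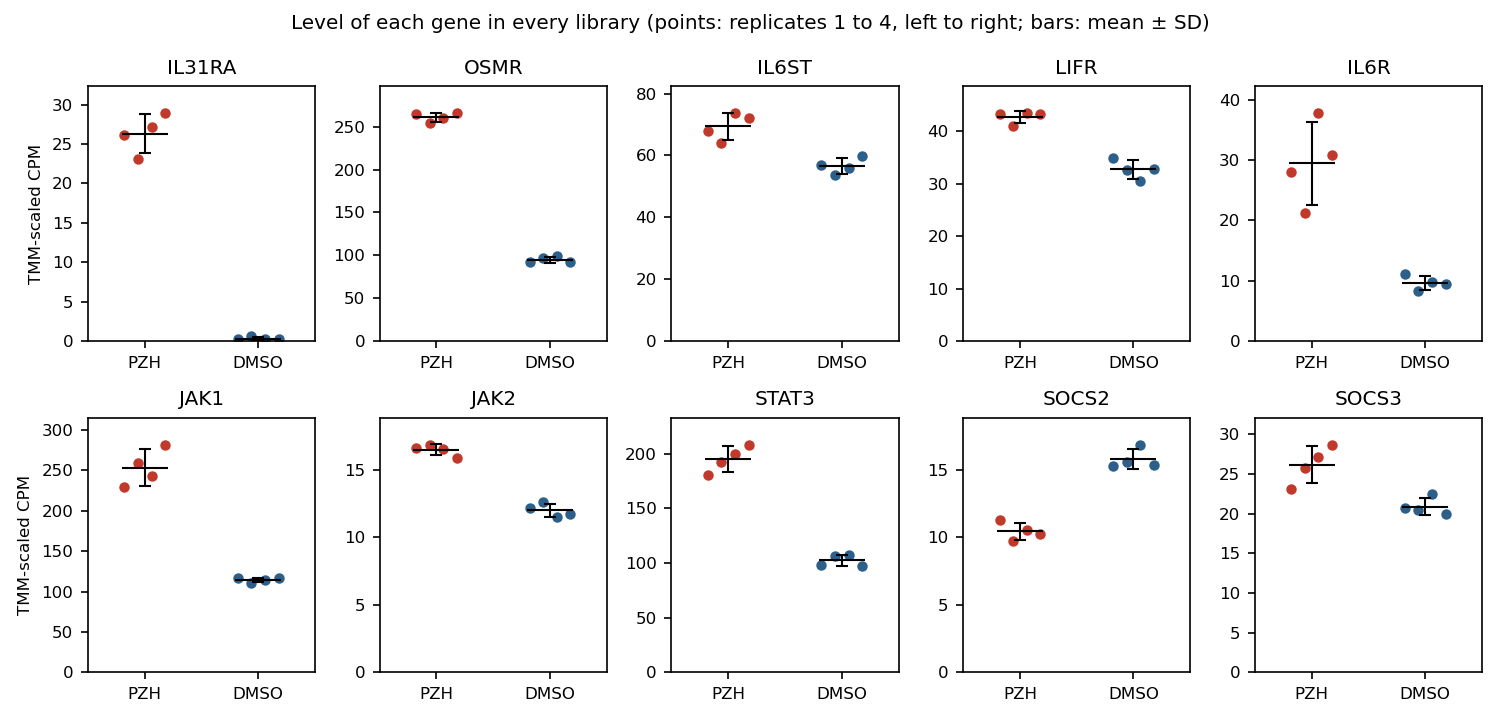
TMM-scaled CPM of each of the 10 genes in the 4 PZH libraries (red) and the 4 DMSO libraries (blue); black bars are the mean and SD of a group, and each axis starts at 0. On this scale no gene has overlapping groups; IL31RA lies near 0 in DMSO, and SOCS2 is the one gene that is lower in PZH.

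IL31RA, the chain that binds IL-31, was almost silent in control cells and expressed after PZH. Its level was 26.2, 23.0, 27.1 and 28.9 CPM in PZH replicates 1 to 4, against 0.183, 0.615, 0.233 and 0.191 CPM in DMSO replicates 1 to 4. In raw counts this was 390 to 477 in each PZH library, against 4, 13, 5 and 4 in the DMSO libraries. Every PZH library was far above every DMSO library, and the DMSO level was close to the 0.137 to 0.143 CPM that 3 counts are worth in a DMSO library on this scale, with 13 of its 26 counts in replicate 2. IL31RA had a log2 fold change of 6.40 ± 0.19 (SE), or 84.6-fold, the 28th highest of 15006 tested genes, and it ran from 6.21 to 6.97 on leaving out each library in turn, with the highest value without DMSO replicate 2.

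The genes whose pattern over the 8 libraries was most like that of IL31RA were BEST1, ATF3, SCEL, DDIT3 and OLAH, with a root mean square difference in log2 CPM, centred on each gene's DMSO mean, of 0.36, 0.38, 0.43, 0.43 and 0.45. The groups set most of this likeness, since all 5 were also far higher in PZH. The stress transcription factor ATF3 averaged 904 ± 82.8 CPM in PZH and 12.7 ± 1.48 CPM in DMSO (SD, n = 4 each), a much higher level than IL31RA in both groups. SCEL, which encodes sciellin of the epithelial envelope, had 78 to 130 counts in PZH libraries and 0 in each DMSO library. The counts of BEST1 are uncertain, because it overlaps the ferritin gene FTH1 on the opposite strand and whether counting used strand is not stated.

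In the RefSeq gene order IL31RA lies between DDX4, a germ cell helicase gene, and IL6ST. DDX4 had 1 count in each PZH library and at most 1 in a DMSO library. Beyond it SLC38A9, a lysosomal amino acid sensor, had 390, 372, 369 and 312 counts in PZH libraries and 350, 385, 381 and 372 in DMSO libraries. Its log2 fold change with TMM was 0.29 ± 0.081 (adjusted p = 0.00249 by edgeR's quasi-likelihood test). The raw counts of the groups overlapped, and its value without scaling factors is not given here. None of these neighbours moved on the scale of IL31RA. Ankyrin repeat gene ANKRD55, on the far side of IL6ST, had at most 1 count in any library.

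OSMR, which pairs with IL31RA for IL-31 and with gp130 for oncostatin M, was the most abundant receptor chain of the group and was also called higher. Its level was 265, 254, 261 and 266 CPM in PZH replicates 1 to 4, against 92.4, 96.7, 98.7 and 91.6 CPM in DMSO replicates 1 to 4. The libraries of each group lay close together, with a coefficient of variation of 1.97% in PZH and 3.59% in DMSO. The log2 fold change was 1.46 ± 0.045 (SE), or 2.75-fold, and 1.20 ± 0.045 without scaling factors. The antisense gene OSMR-AS1 was called higher as well, with 15 to 47 counts in PZH libraries and 2 to 7 in DMSO libraries (log2 fold change 3.10 ± 0.47, adjusted p = 2.99e-06). Reads of OSMR and of its antisense partner cannot be told apart without strand. OSMR had 4305 to 4673 counts in PZH libraries and 1917 to 2120 in DMSO libraries, and the part of antisense reads in these was not tested. RICTOR, a subunit of mTOR complex 2 and the next gene on the far side from LIFR, was called higher by 0.81 ± 0.052 on the log2 scale (adjusted p = 1.63e-12).

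IL6R, the chain that gives cells their answer to IL-6, was the other receptor called at least 2-fold higher. IL6R reached 28.0, 21.2, 37.8 and 30.9 CPM in PZH replicates 1 to 4, against 11.05, 8.24, 9.73 and 9.51 CPM in DMSO replicates 1 to 4. The groups did not overlap, yet PZH libraries differed among themselves more than for any other of the 10 genes, with a coefficient of variation of 23.3% in PZH and 12.0% in DMSO. Replicate 3 was the highest PZH library and replicate 2 the lowest. Its log2 fold change of 1.61 ± 0.13 (SE), or 3.05-fold, ran from 1.48 without PZH replicate 3 to 1.74 without PZH replicate 2.

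OSMR and IL6R are the steepest risers of the 10 with a window in the RefSeq table of promoters (GRCh38.p14), which holds 250 bases before to 50 bases after an annotated start. They are shown because both windows hold the letters TGANTCA, printed here in capitals. This is a loose pattern, with 1 free letter, for the sites of AP-1 factors such as FOS and JUN. OSMR lies on the plus strand at chr5:38845762-38846061, and IL6R on the plus strand at chr1:154405093-154405392.
OSMR: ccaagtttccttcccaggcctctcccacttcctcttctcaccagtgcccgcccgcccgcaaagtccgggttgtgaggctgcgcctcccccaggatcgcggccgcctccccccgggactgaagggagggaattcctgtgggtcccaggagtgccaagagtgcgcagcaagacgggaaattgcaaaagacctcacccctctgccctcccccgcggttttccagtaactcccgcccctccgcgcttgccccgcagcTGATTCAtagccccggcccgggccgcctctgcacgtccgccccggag
IL6R: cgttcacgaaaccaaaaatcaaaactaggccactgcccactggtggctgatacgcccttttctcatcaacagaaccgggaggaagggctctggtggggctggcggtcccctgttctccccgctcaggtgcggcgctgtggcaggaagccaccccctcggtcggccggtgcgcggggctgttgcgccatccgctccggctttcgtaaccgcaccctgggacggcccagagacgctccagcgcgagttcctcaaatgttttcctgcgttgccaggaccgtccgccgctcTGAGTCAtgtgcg
The match, TGATTCA in OSMR and TGAGTCA in IL6R, begins 3 bases past the annotated start in OSMR and 37 bases past it in IL6R. Windows were found for 8 of the 10 genes (all but IL31RA and SOCS2), 16 in all. Of these 16, 2 held TGANTCA, against 7.71% of all 35116 windows, and binding was not tested. Searched on both strands were TGANTCA, the STAT letters TTCNNNGAA, the cyclic AMP element TGACGTCA, the letters TGATGNAA of ATF4 with C/EBP partners, the CCAAT box and the E-box CACGTG. TTCNNNGAA occurred in 2 of the LIFR windows and in none of the others, against 7.66% of all windows, and TGATGNAA in 1 JAK2 window, against 3.62%. CCAAT was in windows of IL6ST, LIFR and STAT3, 3 of 16, against 34.6% of all windows, and none of the 16 held TGACGTCA (1.85% of all windows) or CACGTG (7.26%). No matches overlapped, and a match in letters is a description, not a site.

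The shared chain gp130 and LIFR differed far less between the groups, and whether they were called at all depended on the scaling. IL6ST measured 67.9, 64.0, 73.6 and 72.0 CPM in PZH replicates 1 to 4, against 56.8, 53.8, 55.9 and 60.0 CPM in DMSO replicates 1 to 4. LIFR measured 43.2, 41.1, 43.4 and 43.4 CPM in PZH, against 34.8, 32.7, 30.5 and 32.8 CPM in DMSO. For both genes the groups lay apart on the TMM scale and overlapped without scaling factors, with IL6ST at 57.5 to 67.2 CPM in PZH and 58.7 to 65.1 CPM in DMSO. The log2 fold change of IL6ST was 0.29 ± 0.055 (SE) with TMM and 0.034 ± 0.056 without scaling factors, where it was not called. That of LIFR was 0.39 ± 0.059 with TMM and 0.13 ± 0.063 without scaling factors, where it was not called either.

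**Figure D2:**
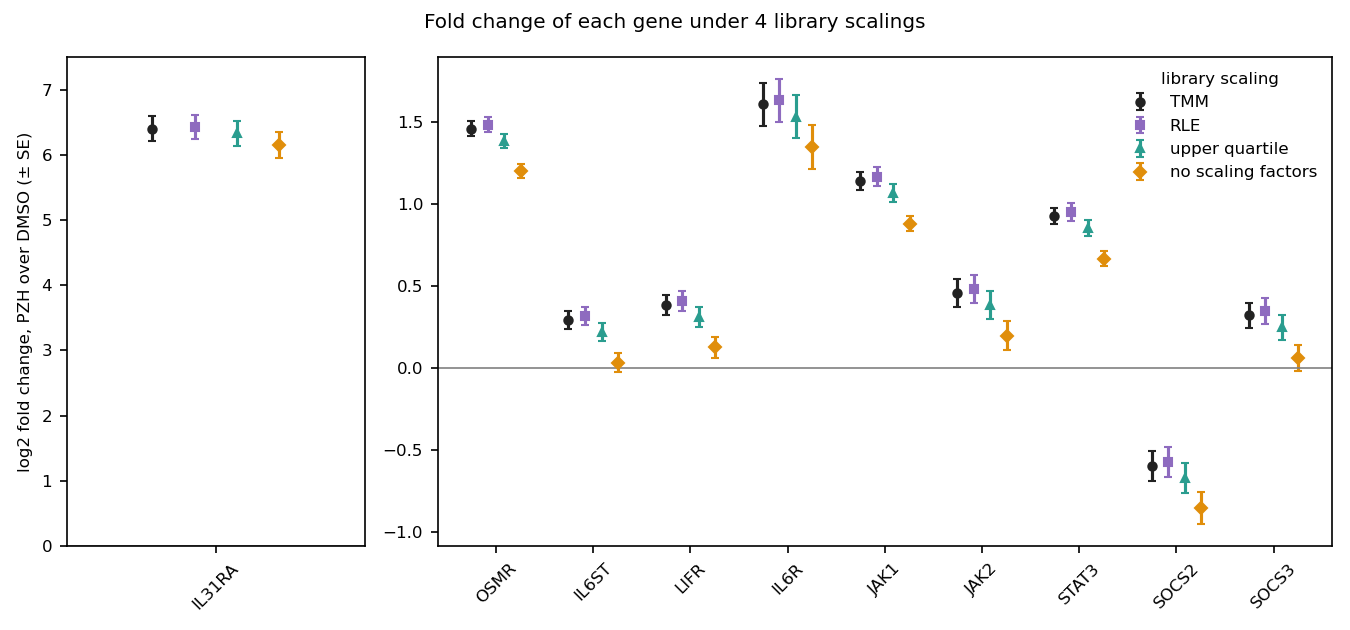
log2 fold change, PZH over DMSO, of the 10 genes under TMM, RLE and upper quartile scaling and without scaling factors (bars: SE); IL31RA has an axis of its own. IL6ST, LIFR and SOCS3 come close to 0 without scaling factors (0.034, 0.13 and 0.063), while IL31RA, OSMR, IL6R, JAK1 and STAT3 stay well above it and SOCS2 below it. JAK2 lies between, at 0.20 without scaling factors.

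Ratios of 2 genes within a library do not depend on how libraries are scaled, and they show the receptor chains changing relative to each other. Here each gene's counts were divided by its exon length in the GENCODE 29 annotation, which need not be the authors' own. OSMR per gp130 was 5.76, 5.87, 5.23 and 5.45 in PZH replicates 1 to 4, against 2.40, 2.66, 2.61 and 2.26 in DMSO replicates 1 to 4. IL6R per gp130 averaged 0.635 ± 0.112 in PZH and 0.256 ± 0.0280 in DMSO (SD, n = 4 each). Neither ratio overlapped between the groups. LIFR per gp130 did overlap, at 0.539 ± 0.0222 in PZH and 0.505 ± 0.0325 in DMSO. IL31RA per OSMR, the ratio of both IL-31 receptor chains, was 0.122 to 0.146 in PZH libraries and 0.00265 to 0.00855 in DMSO libraries.

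**Figure D3:**
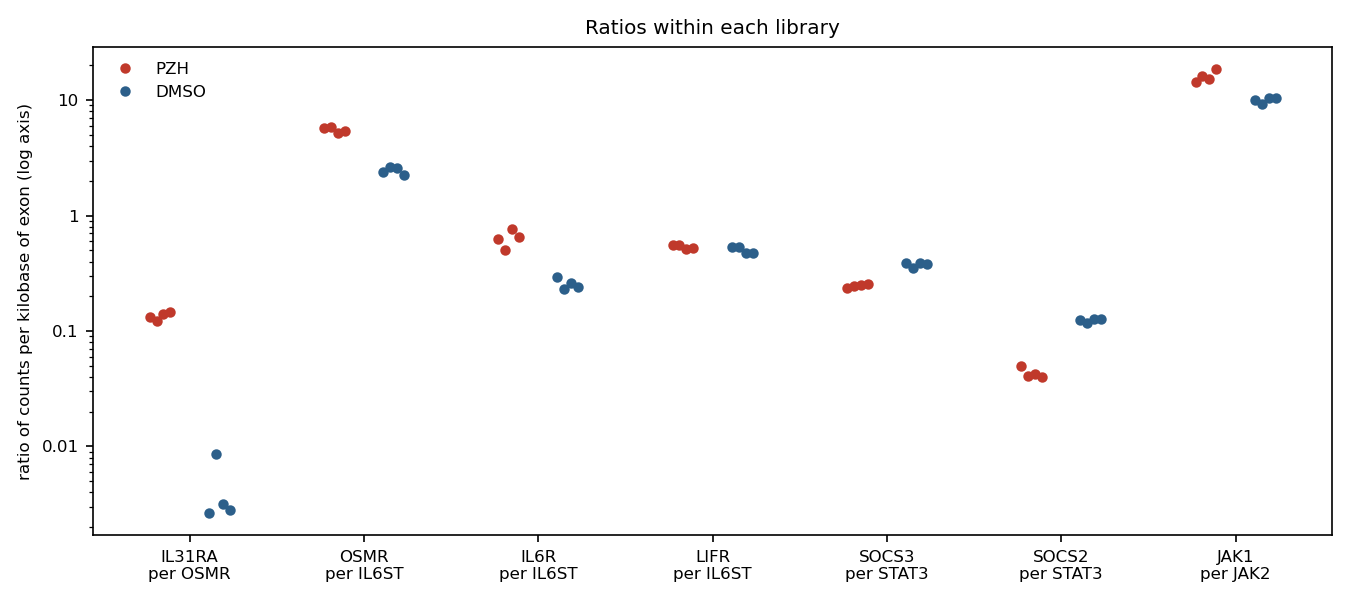
Ratio of counts per kilobase of exon for 7 pairs of genes in each PZH library (red) and each DMSO library (blue), on a log axis. The groups lie apart for 6 of these pairs and overlap for LIFR per IL6ST. SOCS3 per IL6ST, which is not drawn, overlaps as well. For single genes on the TMM scale, the groups lie apart for 75.0% of all genes, and the share for ratios was not computed.

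Both Janus kinases of the group were called higher, JAK1 by more than JAK2. JAK1, which serves gp130, OSMR and many other receptors, measured 229, 259, 243 and 282 CPM in PZH replicates 1 to 4, against 116, 111, 114 and 117 CPM in DMSO replicates 1 to 4. PZH libraries of JAK1 were more spread, with a coefficient of variation of 8.98%, against 2.34% in DMSO, but all lay well above DMSO. Its log2 fold change was 1.14 ± 0.055 (SE), or 2.21-fold, and 0.88 ± 0.048 without scaling factors. JAK2, known mainly from growth hormone and blood cell cytokine receptors, measured 16.6, 16.8, 16.6 and 15.9 CPM in PZH, against 12.1, 12.6, 11.5 and 11.7 CPM in DMSO (log2 fold change 0.46 ± 0.085). Without scaling factors the log2 fold change of JAK2 was 0.20 ± 0.089, and it was still called higher. Per kilobase of exon, JAK1 made up 76.8 ± 1.32% of the 4 JAK genes together in PZH and 64.8 ± 1.11% in DMSO (SD, n = 4 each), and these shares did not overlap.

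STAT3, the main transcription factor downstream of gp130, measured 181, 192, 199.6 and 208 CPM in PZH replicates 1 to 4, against 98.1, 107, 107 and 97.5 CPM in DMSO replicates 1 to 4. All PZH libraries lay above all DMSO libraries. STAT3 had a log2 fold change of 0.93 ± 0.051 (SE), or 1.90-fold, and 0.67 ± 0.047 without scaling factors. These are messenger RNA levels, so the phosphorylated, active form of STAT3 was not measured.

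SOCS2, best known as the brake on growth hormone signalling, was the one gene of the 10 called lower. SOCS2 had 11.3, 9.75, 10.5 and 10.2 CPM in PZH replicates 1 to 4, against 15.3, 15.6, 16.9 and 15.3 CPM in DMSO replicates 1 to 4. No PZH library reached the DMSO range. In log2 fold change this was -0.59 ± 0.091 (SE), or 1.51-fold lower, and -0.85 ± 0.096 without scaling factors. The antisense gene SOCS2-AS1 had 12 to 19 counts in PZH libraries and 7 to 29 in DMSO libraries and was not called (adjusted p = 0.925).

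SOCS3, the feedback inhibitor that gp130 signalling induces through STAT3, changed little. Its level was 23.2, 25.7, 27.1 and 28.7 CPM in PZH replicates 1 to 4, against 20.7, 20.4, 22.4 and 19.9 CPM in DMSO replicates 1 to 4. The lowest PZH library was barely above the highest DMSO library, and without scaling factors the groups overlapped. The log2 fold change of 0.32 ± 0.077 (SE) became 0.063 ± 0.077 without scaling factors, where SOCS3 was not called. Relative to STAT3 it was lower in PZH, at 0.247 ± 0.00755 in PZH and 0.377 ± 0.0161 in DMSO in counts per kilobase (SD, n = 4 each), with no overlap, while SOCS3 per gp130 overlapped, at 1.25 ± 0.0939 in PZH and 1.23 ± 0.0967 in DMSO. The window at its first listed start is shown because SOCS3 is the textbook STAT3 target of the group. It lies on the minus strand at chr17:78360876-78361175 and is printed in the sense of the gene. It has no capitals because no stretch of it has the letters TTCNNNGAA, TGANTCA, TGACGTCA or TGATGNAA. The other of the 2 SOCS3 windows, not shown, has none of them either, and bases outside the windows were not searched. Which start these cells use was not tested.
SOCS3: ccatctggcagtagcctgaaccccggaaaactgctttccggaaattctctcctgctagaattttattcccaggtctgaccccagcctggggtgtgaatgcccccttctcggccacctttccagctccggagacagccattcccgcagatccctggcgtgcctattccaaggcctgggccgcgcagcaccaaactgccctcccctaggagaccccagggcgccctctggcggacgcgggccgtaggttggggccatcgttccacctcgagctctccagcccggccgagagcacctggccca

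Per kilobase of exon the order of the genes shifted in part. In PZH the highest levels were JAK1 at 50.2 ± 4.50, OSMR at 42.5 ± 0.838 and STAT3 at 38.7 ± 2.31 CPM per kilobase (SD, n = 4), followed by SOCS3, IL6ST, IL31RA, IL6R, LIFR, JAK2 and SOCS2. In DMSO the order was JAK1 at 22.7 ± 0.531, STAT3 at 20.3 ± 1.06 and OSMR at 15.4 ± 0.554 CPM per kilobase, followed by SOCS3, IL6ST, LIFR, SOCS2, JAK2, IL6R and IL31RA. OSMR thus stood above STAT3 in PZH and below it in DMSO. In PZH the libraries of IL31RA and IL6R overlapped, as did those of IL6R and LIFR, so their order is not settled, while all other neighbours in either order were apart. IL31RA held the sixth place in PZH and the last in DMSO, at 5.75 ± 0.537 CPM per kilobase in PZH and 0.0668 ± 0.0454 in DMSO.

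The rest of the pathway was read from lists of 67 genes by role, of which 3 were not analysed here, 17 had too few counts to be tested and 47 were tested. Of these 47, 25 were called higher and 12 lower, against 39.3% and 40.9% of all genes, with a median log2 fold change of 0.24. Without scaling factors 19 were called higher and 18 lower, and the median was -0.017. The adjusted p-values that follow are from edgeR's quasi-likelihood test over all genes.

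Among the ligands, IL-11, CLCF1, CTF1 and LIF were called higher and CNTF lower. These are 4 and 1 of the 5 tested of 10, beside 39.3% and 40.9% of all genes. IL11, a gp130 cytokine linked to gut epithelium, had 77, 101, 84 and 92 counts in PZH libraries, against 22, 26, 16 and 28 in DMSO libraries. It was 5.24 ± 0.693 CPM in PZH and 1.08 ± 0.263 CPM in DMSO (SD, n = 4 each), 4.84-fold higher (adjusted p = 1.18e-09). CTF1 (cardiotrophin 1) was 3.17 ± 0.301 CPM in PZH and 1.47 ± 0.217 CPM in DMSO, 2.14-fold higher (adjusted p = 4.51e-05). CLCF1, a ligand of the CNTF receptor, was 16.4 ± 1.17 CPM in PZH and 3.85 ± 0.438 CPM in DMSO, 4.25-fold higher (adjusted p = 1.04e-13). CNTF, a nerve cell survival factor, had at most 8 counts in a PZH library and 32 in a DMSO library and was 3.76-fold lower (adjusted p = 1.44e-04). LIF, the ligand of LIFR, was the most abundant, at 78.9 ± 2.88 CPM in PZH and 47.1 ± 0.833 CPM in DMSO, 1.67-fold higher (adjusted p = 2.79e-12). The ligands of the chains that rose most were not detectable at this depth: IL6 had 0 counts in every library, IL31 had 2 counts in PZH replicate 3 and 0 elsewhere, and OSM had 1 count in DMSO replicate 4 and 0 elsewhere. On the same scale a count of 0 allows up to 0.170 to 0.182 CPM in a PZH library and 0.137 to 0.143 CPM in a DMSO library, counting error only.

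Of 5 other receptors of the family, 3 were tested and 1 was called, beside 80.3% of all genes. IL11RA, the receptor for IL-11, was 0.991 ± 0.294 CPM in PZH and 2.27 ± 0.0892 CPM in DMSO, 2.28-fold lower (adjusted p = 1.84e-04), opposite to its ligand. The IL-27 receptor IL27RA was 27.1 ± 3.08 CPM in PZH and 25.2 ± 2.18 CPM in DMSO (adjusted p = 0.262), and the leptin receptor LEPR was 14.2 ± 1.59 CPM in PZH and 13.0 ± 1.29 CPM in DMSO (adjusted p = 0.253). CNTFR, the receptor chain that CNTF and CLCF1 bind, had at most 3 counts in a library and was not tested.

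The sheddases, proteases that cut receptors such as IL6R from the cell surface, moved in opposite directions. ADAM17 had 5095, 4791, 4916 and 5254 counts in PZH libraries, against 1082, 984, 1011 and 1032 in DMSO libraries. That is 297 ± 15.5 CPM in PZH and 48.1 ± 1.48 CPM in DMSO (SD, n = 4 each), 6.17-fold higher (adjusted p = 7.78e-22). ADAM10 was 107 ± 4.35 CPM in PZH and 185 ± 5.35 CPM in DMSO, 1.73-fold lower (adjusted p = 2.42e-13). Both differences keep their direction without scaling factors.

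Other JAK and STAT genes differed little in size. Of 6 tested, 3 were called higher (STAT2, STAT5B and TYK2) and 2 lower (JAK3 and STAT6), beside 39.3% and 40.9% of all genes. Without scaling factors 2 and 2 were, beside 29.8% and 51.1%. STAT2, known from the interferon response, was 59.1 ± 3.64 CPM in PZH and 36.2 ± 0.916 CPM in DMSO, 1.63-fold higher (adjusted p = 1.02e-10). TYK2, the kinase that completes many gp130 complexes, was 53.6 ± 2.53 CPM in PZH and 43.2 ± 1.72 CPM in DMSO (adjusted p = 2.18e-05), but was not called when scaling factors were left out, where the log2 fold change was 0.052 (adjusted p = 0.390). The call of STAT6 (log2 fold change -0.13 ± 0.056, adjusted p = 0.042) did not hold with DESeq2 (adjusted p = 0.134), RLE factors (adjusted p = 0.0977) or no filter (adjusted p = 0.0557), nor on leaving out any library except DMSO replicate 3 (adjusted p = 0.0578 to 0.112 over the other 7). STAT4 was not called (adjusted p = 0.0531), but was with RLE factors, with limma-voom and DESeq2 and on leaving out PZH replicate 1 or DMSO replicate 3 (adjusted p = 0.0190 to 0.0495 over these).

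Among other SOCS genes and inhibitors, SOCS1 stood far above the rest. SOCS1, an inhibitor that binds JAK kinases directly and is best known from interferon signalling, had 236, 323, 266 and 276 counts in PZH libraries, against 37, 43, 35 and 30 in DMSO libraries. It was 16.3 ± 2.35 CPM in PZH and 1.70 ± 0.251 CPM in DMSO (SD, n = 4 each), 9.57-fold higher (adjusted p = 2.88e-15). Per kilobase of exon SOCS1 came to 0.950 ± 0.121 of SOCS3 in PZH and 0.124 ± 0.0196 in DMSO. Of the 14 tested genes of this list, 6 were called higher and 4 lower, beside 39.3% and 40.9% of all genes, and without scaling factors 2 and 8 were, beside 29.8% and 51.1%. The phosphatase PTPN6 (SHP-1), which removes phosphate from JAK kinases, was 30.0 ± 4.41 CPM in PZH and 41.4 ± 1.95 CPM in DMSO, 1.38-fold lower (adjusted p = 1.49e-05). PTPN11 (SHP2), which docks on gp130 where SOCS3 binds, was 461 ± 12.2 CPM in PZH and 390.1 ± 7.86 CPM in DMSO, with a log2 fold change of 0.24 ± 0.045 (adjusted p = 4.06e-05) that turned to -0.017 without scaling factors and was not called there. CISH, the SOCS family's first member, was called lower (log2 fold change -0.46 ± 0.205, adjusted p = 0.0467), a call lost with DESeq2 (adjusted p = 0.0669), with RLE factors (adjusted p = 0.0602), with the replicate number as a block (adjusted p = 0.0507) and on leaving out PZH replicate 1 or 3 or DMSO replicate 1, 2 or 4 (adjusted p = 0.0626 to 0.197).

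The genes known as STAT3 targets in other systems were listed with results of these data known, so their counts are a description. Of 28, 17 were tested, with 11 called higher and 3 lower, beside 39.3% and 40.9% of all genes, and a median log2 fold change of 1.84; without scaling factors 10 were called higher and 5 lower, beside 29.8% and 51.1% of all genes. The transcription factor CEBPD of the acute phase response was 26.9 ± 4.12 CPM in PZH and 2.71 ± 0.343 CPM in DMSO (SD, n = 4 each), 9.90-fold higher (adjusted p = 1.82e-16). The survival kinase PIM1 was 64.4 ± 10.8 CPM in PZH and 18.0 ± 0.953 CPM in DMSO, 3.58-fold higher (adjusted p = 1.51e-14). TIMP1, an inhibitor of matrix proteases, was 412 ± 44.5 CPM in PZH and 92.7 ± 2.23 CPM in DMSO, 4.45-fold higher (adjusted p = 8.61e-19). FOS, JUNB and ZFP36, called 10.6-fold, 3.92-fold and 10.8-fold higher (adjusted p = 1.08e-15, 2.99e-16 and 1.16e-19), are also immediate early genes that many stimuli induce.

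The STAT3 target list did not move as 1 block. ICAM1, the adhesion molecule of inflamed cells, was 2.67 ± 0.504 CPM in PZH and 4.40 ± 0.774 CPM in DMSO, 1.64-fold lower (adjusted p = 0.00144). The growth and survival genes CCND1 and BIRC5 were called 3.88-fold and 10.2-fold lower (adjusted p = 5.45e-18 and 2.10e-21). STAT3 is known to induce both in other tumours, and the cause of their lower level here was not tested. BCL3 was 14.5 ± 2.38 CPM in PZH and 12.9 ± 0.625 CPM in DMSO and was not called (adjusted p = 0.155), except on leaving out PZH replicate 1 (adjusted p = 0.00543). Of the liver acute phase genes on the list, FGB had 0 counts in every library, and HP, HAMP, LBP, SERPINA3 and A2M had at most 4 in a library. LRG1 had 0, 0, 5 and 3 counts in PZH libraries and 9, 5, 7 and 6 in DMSO libraries and was not tested. The fibrinogen chain FGG had 13, 10, 10 and 10 counts in PZH libraries and 2, 2, 0 and 3 in DMSO libraries (adjusted p = 5.07e-05).

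**Figure D4:**
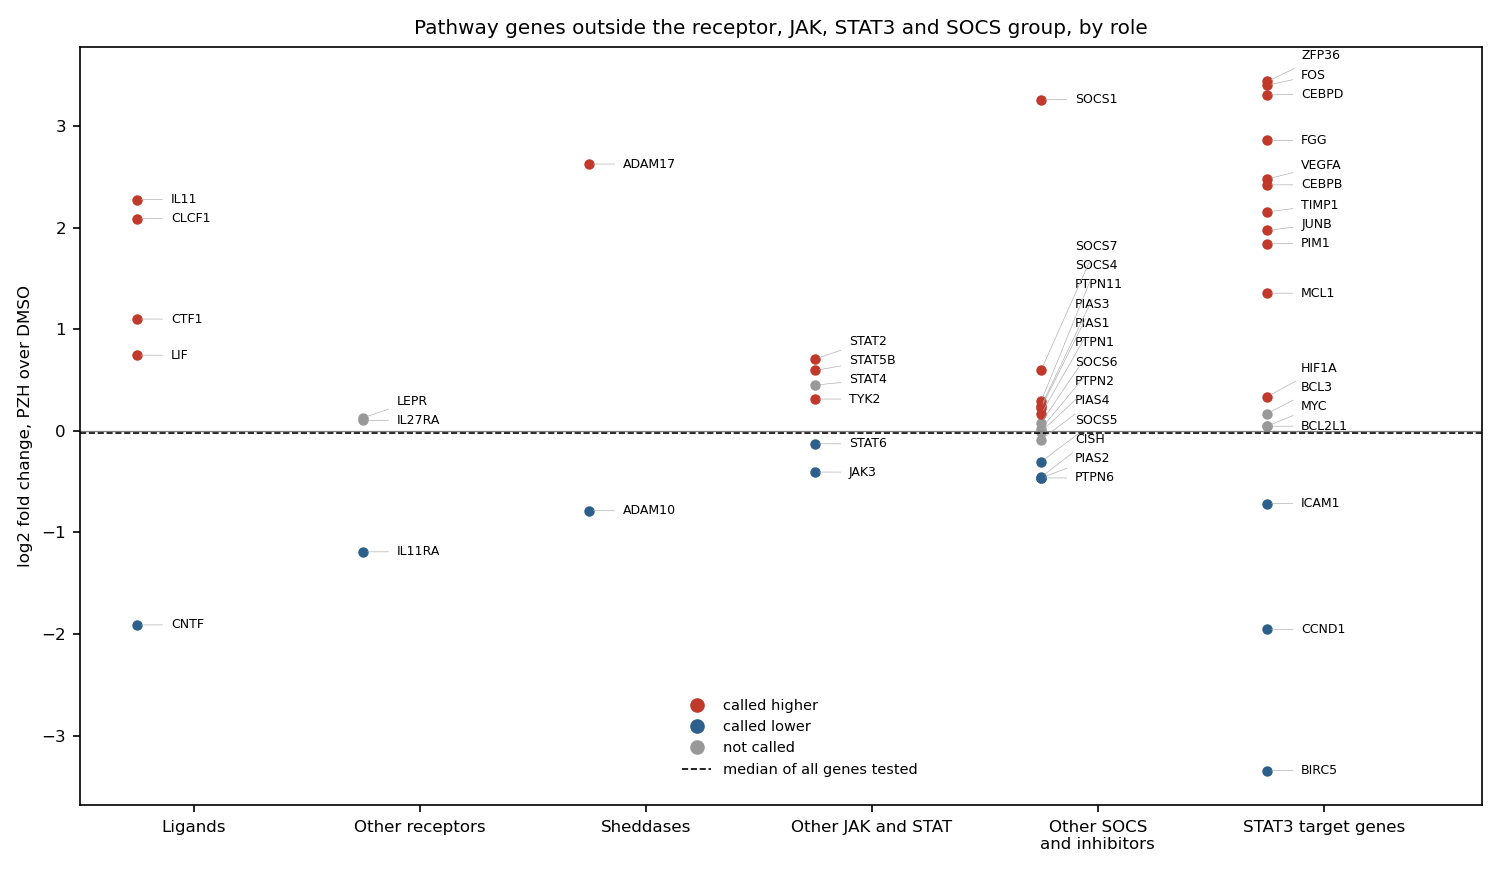
log2 fold change, PZH over DMSO, with TMM scaling, of the 47 tested pathway genes outside the 10, by role; red is called higher, blue lower and grey not called, and the dashed line is the median of all genes tested (-0.02). SOCS1 and ADAM17 stand apart in their columns, at 3.26 and 2.62, and BIRC5 is the lowest, at -3.34.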

How the data were processed

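Poly(A) RNA was enriched from total RNA and sequenced from 8 HCT116 samples, per the labels' protocols. The deposited values are raw whole-number counts by gene symbol, in 1 table; 0 columns belonged to no sample. Tools named, per the submitters' processing notes and without their roles, are StringTie 1.3.3b, HISAT2 2.1.0, DESeq 1.28.0 and FastQC 0.11.5. Genome build, annotation and strand setting: not given in the sources used here. Rows holding 25 gene names turned into dates were kept and are not named.

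Genes were kept by filterByExpr (minimum count 10, minimum total count 15), scaled with TMM and tested with edgeR 4.0.16 (glmQLFit, glmQLFTest, group only; R 4.3.3), two-sided, with Benjamini-Hochberg adjustment over all 15006 genes at 0.05; standard errors were taken as the absolute log2 value over the root of F. The fit was tested on simulated data in which few genes changed, as many up as down. In these data 80.3% of genes were called, so the simulation does not test the scaling used here. Exon lengths are unions over coding transcripts of the GENCODE 29 basic set. Alternatives used RLE, upper quartile or no factors, other filters, DESeq2 1.42.0, limma-voom (limma 3.58.1), robust empirical Bayes, a replicate block, an adjusted p of 0.01, no top 10 genes, and 1 library left out.

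The members and lists were chosen with earlier results of these data known. Named are all 10 members, listed pathway genes by role (2 genes of the lists are not reported here and enter no list count), the 5 genes nearest IL31RA in log2 CPM (prior count 2), and neighbours up to 3 genes away. No pair of replicates agreed within counting noise (chi-square over its degrees of freedom, 2.39 to 12.3), so none was merged. Intervals and floors cover counting error only.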

Additional observations from a re-analysis of the deposited data

Results flagged for a closer look

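A library far from the other 3 of its group, by the gap to its nearest neighbour over the range of the group, was found in 5 of 114 groups examined, where chance gives about 1 in 20. IL31RA in DMSO was high in replicate 2, at 0.615 CPM against 0.183 to 0.233 CPM in the others (ratio 0.884). LIFR in PZH was low in replicate 2, at 41.1 CPM against 43.2 to 43.4 CPM (0.918). SOCS5, an inhibitor of the SOCS family, was low in PZH replicate 1, at 33.7 CPM against 36.4 to 36.7 CPM (0.908). FGG was high in PZH replicate 1, at 0.736 CPM against 0.591 to 0.606 CPM (0.896). SOCS4 was low in DMSO replicate 2, at 50.2 CPM against 54.95 to 55.9 CPM (0.836). Each of these gaps is small beside the difference between PZH and DMSO for IL31RA, LIFR and FGG, and the cause was not tested.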

How the results depend on the processing

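Over 18 refits, the fold changes of the 10 genes kept their direction in all 180 values and their side of the threshold in 177; the 3 exceptions are IL6ST, LIFR and SOCS3 without scaling factors. Numbers of genes called, over all genes and over the 47 pathway genes together, stayed within 1.5 times. By role they did not: without scaling factors the other SOCS genes and inhibitors had 2 called higher and 8 lower, against 6 and 4 with TMM, and the STAT3 targets had 5 called lower, against 3. Of 845 values of pathway genes, 22 turned direction. Without scaling factors these were IL27RA (-0.16), LEPR (-0.13), SOCS6 (-0.24), PIAS1 (-0.095), PIAS3 (-0.036), PTPN1 (-0.18), PTPN11 (-0.017), BCL3 (-0.094), MYC (-0.22) and BCL2L1 (-0.21), of which SOCS6, PTPN1, MYC and BCL2L1 were called lower there. With upper quartile factors they were SOCS6 (-0.054), MYC (-0.027) and BCL2L1 (-0.029), and PTPN2 turned with RLE factors (0.016) and DESeq2 (0.016). Leaving out 1 library at a time gave -0.0082 to 0.061 for SOCS6, -0.029 to 0.017 for PTPN2, -0.018 to 0.16 for MYC, -0.0071 to 0.11 for BCL2L1. The cause was not tested. Same-numbered libraries did not deviate together (correlations 7.36e-04 to 0.0113), so numbers pair nothing; with the replicate block 5889 genes were called higher and 6125 lower, and 25 and 11 of the pathway genes, where CISH lost its call. Depth limits the genes near 3 counts a library, among them IL31RA in DMSO.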
